A study of Homo sapiens with 4 samples.

Results

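The genes described here are 29 genes of cholesterol synthesis, sterol sensing and sterol uptake, taken by symbol from 43622 genes in each of 4 messenger RNA libraries. They fall into 3 steps: 11 genes of the mevalonate arm, which ends at lanosterol, 9 genes of the post-lanosterol arm, and 9 genes of sensing and uptake. All 29 passed the filter on low counts, as did 15273 genes in total. The libraries come from A549 and H1993, established human lung cancer cell lines labelled as lung epithelial cells, each grown attached to the dish (adherent) or as floating cell clusters (spheroids). The submitters treat spheroid culture as the source of cancer stem cells and compare lipid synthesis between the cultures. The labels of these 4 libraries differ by line and culture, and they do not give a genotype change, drug, time or medium, so whether medium or time was the same is not known. Each combination is 1 library, so there is no replicate of any group.

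Cells build cholesterol from acetyl-CoA through isoprenoid intermediates to squalene, close squalene into lanosterol, and then remove methyl groups and shift double bonds to reach cholesterol. The transcription factor SREBP-2, encoded by SREBF2, switches these genes on. When membrane sterol is plentiful, SCAP and the INSIG proteins hold it in the endoplasmic reticulum, and when sterol is scarce it is carried to the Golgi, cut, and released to the nucleus.

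Exon reads per library were between 15331121 and 17681746, intronic reads made up between 8.43% and 11.6% of gene reads, and mitochondrial genes took between 4.57% and 8.29% of exon reads. The library labelled H1993 adherent resembled the A549 adherent library more than H1993 spheroids. Of the 15273 genes, 13.3% were at least 2-fold apart between the 2 adherent libraries, against 35.7% between the labelled H1993 adherent library and the H1993 spheroid library and 23.5% between the A549 libraries. Line and culture therefore cannot be told apart in folds of H1993 spheroids over the library labelled H1993 adherent, and the A549 fold is given beside them. The epithelial markers EPCAM, CDH1, KRT8, KRT18 and KRT19 were present in all 4 libraries. Each had more reads in H1993 spheroids than in the library labelled H1993 adherent. In A549 adherent, A549 spheroid, labelled H1993 adherent and H1993 spheroid libraries EPCAM had 413, 308, 266 and 4716 reads. KRT19 had 1311, 5351, 666 and 28510. SFTPB and SFTPC, surfactant genes of alveolar cells, had at most 2 reads in any library. The lung factor NKX2-1 had 0 reads in both A549 libraries, 12 in the labelled H1993 adherent library and 13 in H1993 spheroids. Of the leukocyte markers, CD68, which is also expressed outside leukocytes, had 259, 1492, 556 and 1053 reads in A549 adherent, A549 spheroid, labelled H1993 adherent and H1993 spheroid libraries. PTPRC, which defines leukocytes, had 0 reads in the first 3 and 45 in H1993 spheroids. The endothelial markers summed to between 0.0769 and 3.22 TPM. VWF had no more than 2 reads in any library, while PECAM1 had 2, 129, 7 and 36. The fibroblast markers summed to between 4.40 and 15.7 TPM. Values in lists of 4 follow that same order of libraries throughout.

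Transcripts of the 29 genes were about as abundant in the 2 adherent libraries and more abundant in both spheroid libraries. They made up 0.170% of exon reads in A549 adherent cells (95% exact binomial interval 0.168% to 0.173%) and 0.370% in A549 spheroids (0.367% to 0.373%). The share was 0.189% (0.187% to 0.191%) where the label is H1993 adherent and 0.390% (0.387% to 0.393%) in H1993 spheroids. These and all later intervals cover counting error only, since reads amplified by PCR are not separate molecules. The deposited TPM, a measure of transcripts scaled by exon length, summed over the 29 genes to 1399, 3086, 1453 and 3517. Mevalonate arm genes summed to 592, 1418, 642 and 1444 TPM, post-lanosterol genes to 475, 1058, 508 and 1527, and sensing and uptake genes to 332, 609, 303 and 546. In both adherent libraries the highest TPM of the 29 belonged to FDPS, the farnesyl diphosphate synthase, at 108 and 105. In both spheroid libraries it belonged to MSMO1, the sterol C4-methyl oxidase, at 395 and 563.

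**Figure D1:**
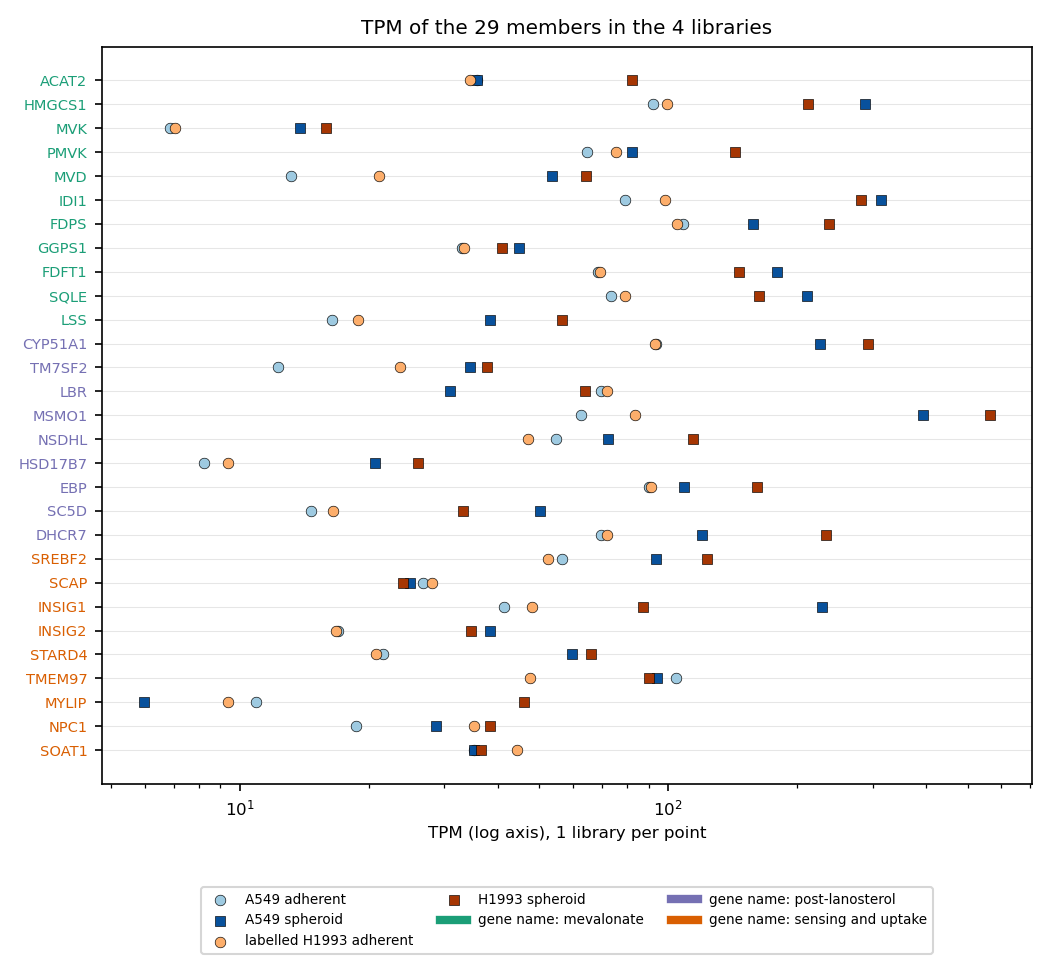
TPM of each of the 29 genes (rows, coloured by pathway step) on a log axis, with 1 point per library. The spheroid squares lie to the right of the adherent circles for most enzymes, with MSMO1 reaching 395 and 563 TPM, while LBR, SCAP, SOAT1, TMEM97 and MYLIP are among those that break that order.

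With 1 library a group, a gene was called higher or lower when its exon read fold was at least 2 and its 95% counting interval (exact, Clopper-Pearson) excluded no change. This compares 2 libraries, not 2 conditions. In A549 spheroids against A549 adherent cells, 15 of the 29 genes were higher, against 12.4% of all genes, and 1 was lower, against 10.3%. In H1993 spheroids against the library labelled H1993 adherent, 16 were higher, against 17.0% of all genes, and 0 were lower, against 18.0%. The median log2 fold of the 29 was 1.12 in the A549 pair and 1.02 in the H1993 pair, beside 0.00 over all genes in each. In the A549 pair the medians were 1.33 in the mevalonate arm, 1.38 in the post-lanosterol arm and 0.73 in sensing and uptake. In the H1993 pair they were 1.09, 1.20 and 0.85. By step, the A549 pair had 7 of 11, 5 of 9 and 3 of 9 genes higher, and the H1993 pair 8 of 11, 5 of 9 and 3 of 9.

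Calls in the 2 pairs overlapped. HMGCS1, MVK, MVD, IDI1, FDFT1, LSS, CYP51A1, MSMO1, HSD17B7 and STARD4, 10 of the 29, were higher in both pairs, a combination found in 4.70% of all genes. HMGCS1 and FDFT1 lost their H1993 call under library size scaling and with no filter, and the H1993 count of 16 was 14 in both settings and 19 by TPM. CYP51A1 had at most 1.60% of its exon reads uniquely placed in any library. The genes higher in both are 10 of the 15 called in A549 and 10 of the 16 called in H1993. A further 5 (SQLE, TM7SF2, SC5D, INSIG1 and INSIG2) were higher in A549 and called neither way in H1993, against 5.84% of all genes. Another 6 (ACAT2, FDPS, NSDHL, DHCR7, SREBF2 and MYLIP) were higher in H1993 and called neither way in A549, against 11.1%. SQLE, SC5D and INSIG2 were just short of the limit in H1993, at 0.97, 0.93 and 0.97, and passed it by TPM. LBR was lower in A549 and called neither way in H1993, against 5.17% of all genes. The rule was met in neither pair by 7 genes (PMVK, GGPS1, EBP, SCAP, TMEM97, NPC1 and SOAT1), against 54.0%. Whether any gene's fold differs between lines could not be tested with 1 library a group.

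**Figure D2:**
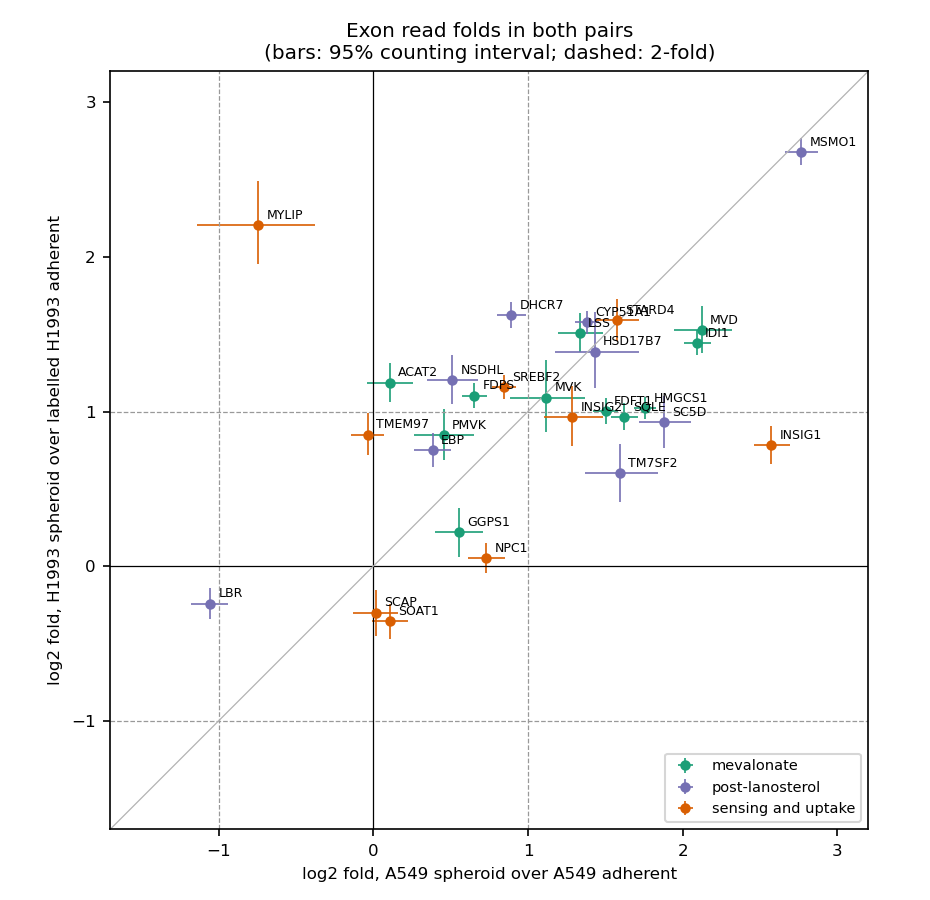
Log2 fold of exon reads in A549 spheroids over A549 adherent cells (x axis) and in H1993 spheroids over the library labelled H1993 adherent (y axis), 1 point per gene with its 95% counting interval. MSMO1 is highest on both axes (2.77 and 2.68), INSIG1 lies far to the right (2.57 against 0.78), and MYLIP is the gene below 0 on one axis and above 2-fold on the other.

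Promoter sequence was looked at for motifs known from sterol control. RefSeq promoter windows of GRCh38.p14, from 250 bases before to 50 after the start, matched 26 of the 29 genes in 34 windows. FDFT1, ACAT2 and SQLE were not matched. The stretches below were chosen because they hold the only sterol regulatory element core and the only E-box found, or belong to genes with large or opposite folds, and the longer ones end before the first annotated exon. The SREBF2 stretch lies before the gene, within an exon of an antisense RNA, and the 30-base stretch of INSIG1 lies inside an annotated exon. Capitals mark matches, on either strand, to the sterol regulatory element core TCACNCCAC, to the E-box TCACGTGA, and to CCAAT, the box read by NF-Y, which appears as ATTGG on the opposite strand. INSIG1 has 1 stretch at the E-box and 1 further from the start.
SREBF2, chr22:41832962-41832991, plus strand: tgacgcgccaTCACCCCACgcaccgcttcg
INSIG1, chr7:155297811-155297840, plus strand: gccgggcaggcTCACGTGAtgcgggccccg
INSIG1, chr7:155297628-155297775, plus strand: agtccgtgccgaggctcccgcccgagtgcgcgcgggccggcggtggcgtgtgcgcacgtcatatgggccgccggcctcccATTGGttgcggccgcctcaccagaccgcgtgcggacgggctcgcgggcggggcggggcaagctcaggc
MVD, chr16:88663162-88663297, minus strand: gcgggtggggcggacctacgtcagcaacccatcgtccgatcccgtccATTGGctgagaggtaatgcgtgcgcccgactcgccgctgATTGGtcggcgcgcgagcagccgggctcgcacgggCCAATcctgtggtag
MSMO1, chr4:165327419-165327622, plus strand: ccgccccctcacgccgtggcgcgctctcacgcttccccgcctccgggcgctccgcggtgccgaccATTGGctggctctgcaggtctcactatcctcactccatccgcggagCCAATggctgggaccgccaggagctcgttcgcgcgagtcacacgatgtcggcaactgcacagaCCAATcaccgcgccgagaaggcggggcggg
STARD4, chr5:111512591-111512785, minus strand: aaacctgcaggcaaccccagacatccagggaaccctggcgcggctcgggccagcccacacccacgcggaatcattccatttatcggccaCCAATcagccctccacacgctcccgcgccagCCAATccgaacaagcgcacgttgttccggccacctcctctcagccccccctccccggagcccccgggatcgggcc
MYLIP, chr6:16128836-16129085, plus strand: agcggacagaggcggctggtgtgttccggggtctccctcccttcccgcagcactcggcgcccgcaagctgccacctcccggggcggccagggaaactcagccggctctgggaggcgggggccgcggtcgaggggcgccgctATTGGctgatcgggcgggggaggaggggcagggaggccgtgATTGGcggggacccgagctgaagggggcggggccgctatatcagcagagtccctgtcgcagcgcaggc
LBR, chr1:225428926-225429071, minus strand: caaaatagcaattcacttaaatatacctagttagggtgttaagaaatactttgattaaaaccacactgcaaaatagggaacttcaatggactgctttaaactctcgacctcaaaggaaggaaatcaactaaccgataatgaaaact

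The sterol regulatory element core was found in 1 of the 26 genes, SREBF2, where TCACCCCAC begins 133 bases before the start. It was in 1.13% of all 35116 windows and in 1.39% of all 27305 genes with a window. Only these letters within these windows were searched. An element with other letters or further away would be missed, so no match does not mean no element. The E-box was found in INSIG1 alone, 56 bases before the start, and in 0.980% of all windows and 1.18% of all genes. CCAAT was present in 22 of the 34 windows (64.7%) against 34.6% of all windows. By gene it was present in 20 of the 26, against 39.7% of all genes. The GC box GGGCGG was present in 88.2% of the windows against 45.0% of all. The windows had a median GC content of 67.2% in the 200 bases before the start, against 59.0% over all windows. The motifs were searched separately and none of the 4 contains another. The 20 genes with CCAAT had median log2 folds of 1.23 in A549 and 1.13 in H1993, with 11 and 13 called higher. The 6 without it (PMVK, CYP51A1, LBR, SCAP, INSIG2 and NPC1) had medians of 0.59 and 0.45, with 2 and 1 called higher. The H1993 call is that of CYP51A1, few of whose reads were uniquely placed. Over all genes 12.4% and 17.0% were called higher. Calls among all genes with and without CCAAT were not counted, so the contrast between these small groups has no reference. A match is a description of letters, and it is neither a bound site nor a cause. MVD and MYLIP both carry CCAAT, and their A549 log2 folds were 2.12 and -0.74.

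**Figure D3:**
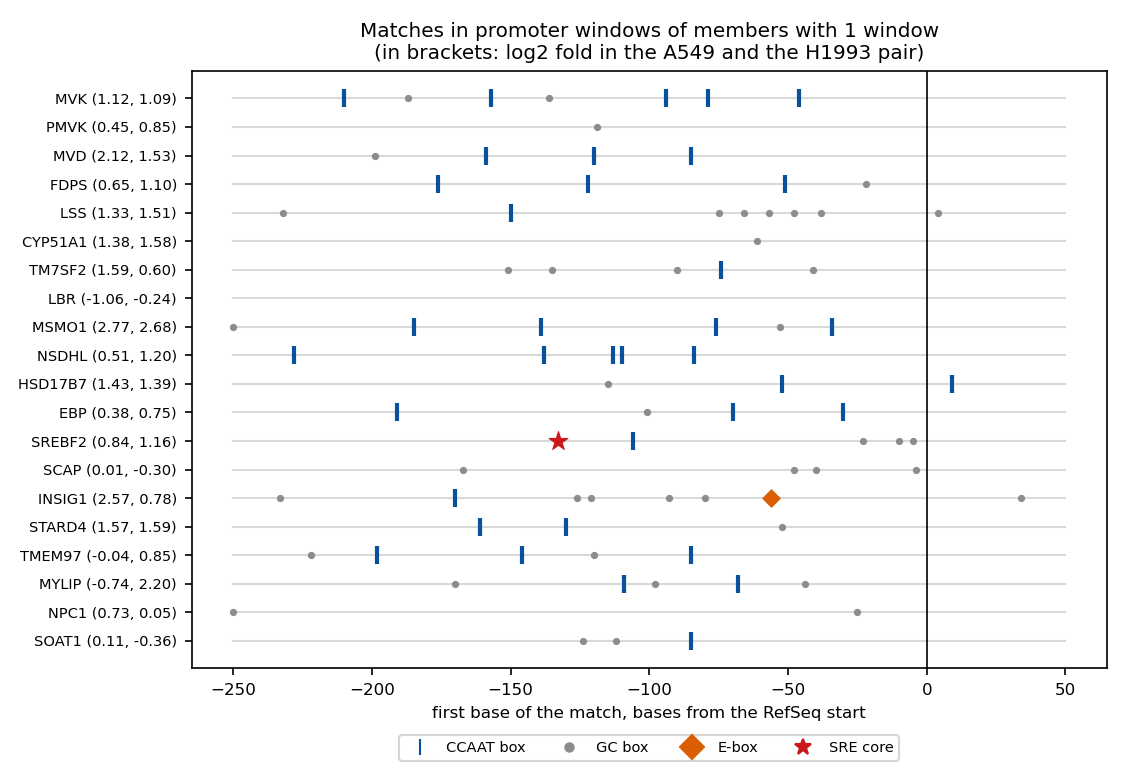
Positions of motif matches, as bases from the RefSeq start, in 20 genes that have a single promoter window, with the A549 and H1993 log2 folds in brackets. SREBF2 holds the star of the sterol regulatory element core at 133 bases before the start, INSIG1 the diamond of the E-box at 56 bases before it, and LBR has no match.

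Of the 4 genes at the core of sensing, INSIG1 and INSIG2, which restrain the pathway, had larger A549 folds than SREBF2 and SCAP. In H1993 the largest fold of these 4 was that of SREBF2. INSIG1 retains SCAP in the endoplasmic reticulum, and its own gene is a classical SREBP target. Its exon reads were 695, 4331, 896 and 1359 (41.4, 229, 48.1 and 87.3 TPM), so A549 spheroids stood above the other 3 libraries. The log2 fold was 2.57 in A549 (95% interval 2.46 to 2.69) and 0.78 in H1993 (0.66 to 0.91). Between the spheroid libraries INSIG1 was the gene of the 29 called lower in H1993, at a log2 fold of -1.55 (-1.64 to -1.47).

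INSIG2, the second retention protein, had 307, 786, 338 and 583 reads, with both spheroid libraries above both adherent ones. Its log2 fold was 1.29 in A549 (1.10 to 1.49) and 0.97 in H1993 (0.77 to 1.17), just short of 2-fold in H1993. SREBF2 itself had 1959, 3676, 2017 and 3962 reads, and its log2 folds of 0.84 (0.77 to 0.92) and 1.16 (1.08 to 1.24) put it above 2-fold in H1993 and below it in A549. SCAP, the escort protein, had 774, 817, 904 and 646 reads and did not follow these genes. Its log2 fold was 0.01 in A549 (-0.13 to 0.16) and -0.30 in H1993 (-0.45 to -0.15).

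The mevalonate arm had its largest A549 folds in MVD, IDI1 and HMGCS1, which act in the steps up to the isoprenoid unit. MVD, the mevalonate diphosphate decarboxylase, had 286, 1309, 508 and 1291 reads. Its log2 fold was 2.12 in A549 (1.95 to 2.32) and 1.53 in H1993 (1.38 to 1.68). The labelled H1993 adherent library lay above A549 adherent cells by a log2 fold of 0.70, which is under the 2-fold limit, and the spheroid libraries were 0.10 apart.

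IDI1, the isopentenyl diphosphate isomerase, had 1310, 5839, 1803 and 4322 reads and reached log2 folds of 2.09 (2.01 to 2.18) and 1.44 (1.37 to 1.52). HMGCS1, which makes HMG-CoA, had 1992, 7036, 2381 and 4261 reads, and its log2 folds were 1.76 (1.69 to 1.83) and 1.02 (0.95 to 1.10). In both genes A549 spheroids were the highest library and the adherent libraries the lowest. SQLE, the squalene epoxidase, had 1460, 4704, 1741 and 2998 reads, with log2 folds of 1.62 (1.54 to 1.71) and 0.97 (0.88 to 1.05).

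FDFT1, the squalene synthase, and LSS, which closes the ring of lanosterol, were higher in both pairs. LSS had log2 folds of 1.33 and 1.51, and FDFT1 1.50 in A549 and, just past the limit in H1993, an interval of 0.92 to 1.09. MVK, the mevalonate kinase, was also higher in both, at 1.12 and 1.09. FDPS, which makes farnesyl diphosphate, had 0.65 in A549 and 1.10 in H1993, and was higher in H1993 alone.

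The smallest A549 folds of this arm were those of ACAT2, PMVK and GGPS1. ACAT2, the cytosolic acetoacetyl-CoA thiolase, had 709, 797, 754 and 1513 reads, so H1993 spheroids alone stood out. Its log2 fold was 0.11 in A549 (-0.04 to 0.25) and 1.19 in H1993 (1.06 to 1.32), and it overlaps TCP1 and SOD2 on the opposite strand. PMVK, the phosphomevalonate kinase, had 381, 546, 494 and 784 reads and log2 folds of 0.45 (0.26 to 0.65) and 0.85 (0.69 to 1.02). GGPS1, which extends farnesyl to geranylgeranyl diphosphate for protein prenylation and so leaves the sterol route, had log2 folds of 0.55 and 0.22, and it overlaps ARID4B on the opposite strand.

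In the post-lanosterol arm MSMO1 had the largest fold of all 29 genes in both pairs. Its reads were 831, 5922, 1232 and 6953, and both spheroid libraries were well above both adherent ones. Beside the folds of 2.77 (2.66 to 2.88) in A549 and 2.68 (2.59 to 2.77) in H1993, the adherent libraries were 0.44 apart and the spheroid libraries 0.35 apart. SC5D, the lathosterol oxidase, had 375, 1447, 469 and 789 reads, with A549 spheroids highest, and log2 folds of 1.88 (1.72 to 2.05) and 0.93 (0.77 to 1.10).

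TM7SF2 and LBR both have sterol C14-reductase activity and had exon read folds of opposite sign in both pairs. TM7SF2, which resides in the endoplasmic reticulum, had 192, 609, 410 and 548 reads. Its log2 fold was 1.59 in A549 (1.37 to 1.84) and 0.60 in H1993 (0.41 to 0.79), and it shares its strand with the overlapping gene VPS51. LBR, the lamin B receptor of the inner nuclear membrane, had 1683, 845, 1924 and 1432 reads, with A549 spheroids lowest. It was lower in A549 spheroids, at -1.06 (-1.18 to -0.94), and its H1993 log2 fold was -0.24 (-0.34 to -0.14). By TPM, TM7SF2 stood at 12.2, 34.4, 23.6 and 37.7 and LBR at 69.6, 31.0, 71.8 and 63.8, so A549 spheroids were the library in which TM7SF2 had more transcripts than LBR.

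The remaining enzymes of this arm had positive folds. CYP51A1, the lanosterol demethylase, had 1753, 4771, 1938 and 5090 reads and log2 folds of 1.38 and 1.58, but at most 1.60% of its exon reads in any library were uniquely placed. Its values are therefore uncertain. The few unique reads alone gave 1.39 and 1.28, and moved its fold between the spheroid libraries from 0.21 to 0.57. HSD17B7, a sterol ketoreductase, was higher in both pairs, at 1.43 and 1.39. NSDHL, the C4-decarboxylase, and DHCR7, which performs the last reduction to cholesterol, were higher in H1993 alone, at 1.20 and 1.62, beside 0.51 and 0.89 in A549. EBP, the sterol isomerase, had 999, 1363, 1119 and 1660 reads and log2 folds of 0.38 (0.27 to 0.50) and 0.75 (0.64 to 0.86).

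The genes of sterol movement and uptake gave no common direction. STARD4, a cytosolic sterol carrier, had 564, 1759, 603 and 1601 reads, and both spheroid libraries stood above the adherent ones. Its log2 folds of 1.57 (1.44 to 1.72) and 1.59 (1.46 to 1.73) were near each other, and both the spheroid libraries (-0.02) and the adherent libraries (-0.03) were nearly level. TMEM97, which binds sterol and limits NPC1, had 1456, 1483, 735 and 1169 reads. Here the labelled H1993 adherent library stood below the others, by a log2 fold of -1.11 (-1.25 to -0.99) against A549 adherent cells. The fold in A549 was -0.04 (-0.14 to 0.07) and that in H1993 0.85 (0.72 to 0.99).

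MYLIP, the ubiquitin ligase that removes lipoprotein receptors and is known as a target of the oxysterol receptors, had 152, 94, 145 and 595 reads. H1993 spheroids were far above the other 3 libraries and A549 spheroids were lowest. Its log2 fold was -0.74 in A549 (-1.14 to -0.38), short of the 2-fold limit, and 2.20 in H1993 (1.96 to 2.49). Between the spheroid libraries it was 2.75 (2.46 to 3.11). NPC1, which lets cholesterol out of lysosomes, had log2 folds of 0.73 and 0.05, and SOAT1, which esterifies cholesterol for storage, 0.11 and -0.36.

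Few of the 29 genes were 2-fold apart between the spheroid libraries. Of them, 2 were higher in H1993 spheroids (ACAT2 and MYLIP), against 18.0% of all genes, and 1 was lower (INSIG1), against 19.1%. Over all genes 37.8% were at least 2-fold apart between these libraries. The median log2 fold was 0.10, with HMGCS1 (-0.61), SQLE (-0.53), FDFT1 (-0.46) and SC5D (-0.76) on the A549 side and DHCR7 (0.80), LBR (0.88) and PMVK (0.64) on the H1993 side. Between the adherent libraries 0 of the 29 were higher in the one labelled H1993, against 6.94% of all genes, and 1 was lower (TMEM97), against 5.49%. The highest library was H1993 spheroids for 15 of the 29, A549 spheroids for 10, labelled H1993 adherent for 3 (LBR, SCAP and SOAT1 by TMM-scaled reads) and A549 adherent for 1 (TMEM97).

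Intronic reads, which come largely from unspliced RNA, gave a second readout from the same libraries. In 27 genes there were at least 20 intron reads over the pair, the exceptions being TM7SF2 and SC5D. In A549, 15 of the 27 had higher intron reads in spheroids, against 5.90% of genes, and 2 (LBR and MYLIP) had lower, against 17.0%. The median intron log2 fold was 1.15, beside -0.34 over all genes. In H1993, 15 were higher, against 16.2% of genes, and 0 were lower, against 17.3%, with a median of 1.13 beside -0.02. Between the spheroid libraries 4 (FDPS, LBR, DHCR7 and MYLIP) had higher intron reads in H1993, against 27.8% of genes, and 1 (INSIG1) had lower, against 11.3%.

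Several genes had intron folds apart from their exon folds, judged by intervals that do not overlap: 11 of the 27 in A549, against 25.0% of genes, and 8 in H1993, against 21.0%. In A549 the exon fold was the larger, with intervals apart, in 7 of the 27, against 22.3% of all genes. The intron fold was the larger in 4 of the 27, against 312 of 11667 genes. In H1993 the intron fold was the larger in 7 of the 27, against 1083 of 12039 genes, and the exon fold in 1, against 1446 of 12039. With introns scaled by their own TMM the A549 count of genes with intervals apart was 7, against 17.8% of all genes. Those no longer apart were MSMO1, SREBF2, NPC1 and SOAT1. The intron fold was then the larger in 4 of the 27, against 975 of 11667 genes, and the exon fold in 3, against 1103 of 11667. MSMO1 had an intron fold of 1.90 (1.49 to 2.40) in A549, under its exon fold, but the intervals met under that scaling (1.80 to 2.72), and 2.63 in H1993, close to its exon fold. STARD4 had 0.58 (0.08 to 1.12) in A549 against 1.57 in exons. GGPS1 had -0.62 (-1.01 to -0.27) in A549 introns against 0.55 in exons. The opposite held for FDPS and DHCR7. FDPS introns gave 1.27 (1.11 to 1.44) and 1.67 (1.55 to 1.79) against exon folds of 0.65 and 1.10, and DHCR7 introns gave 1.52 (1.07 to 2.08) and 2.53 against 0.89 and 1.62. ACAT2 introns gave 1.15 (0.66 to 1.73) in A549, where its exon fold was 0.11. MYLIP had -2.19 (-3.05 to -1.61) in A549 introns. In H1993, LBR and SCAP had intron folds above 0, at 0.45 (0.21 to 0.70) and 0.54 (0.23 to 0.86), against exon folds of -0.24 and -0.30. Use of strand in counting is not stated, so intron reads of genes that overlap another gene may belong to that gene, and 17 of the 29 overlap one.

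**Figure D4:**
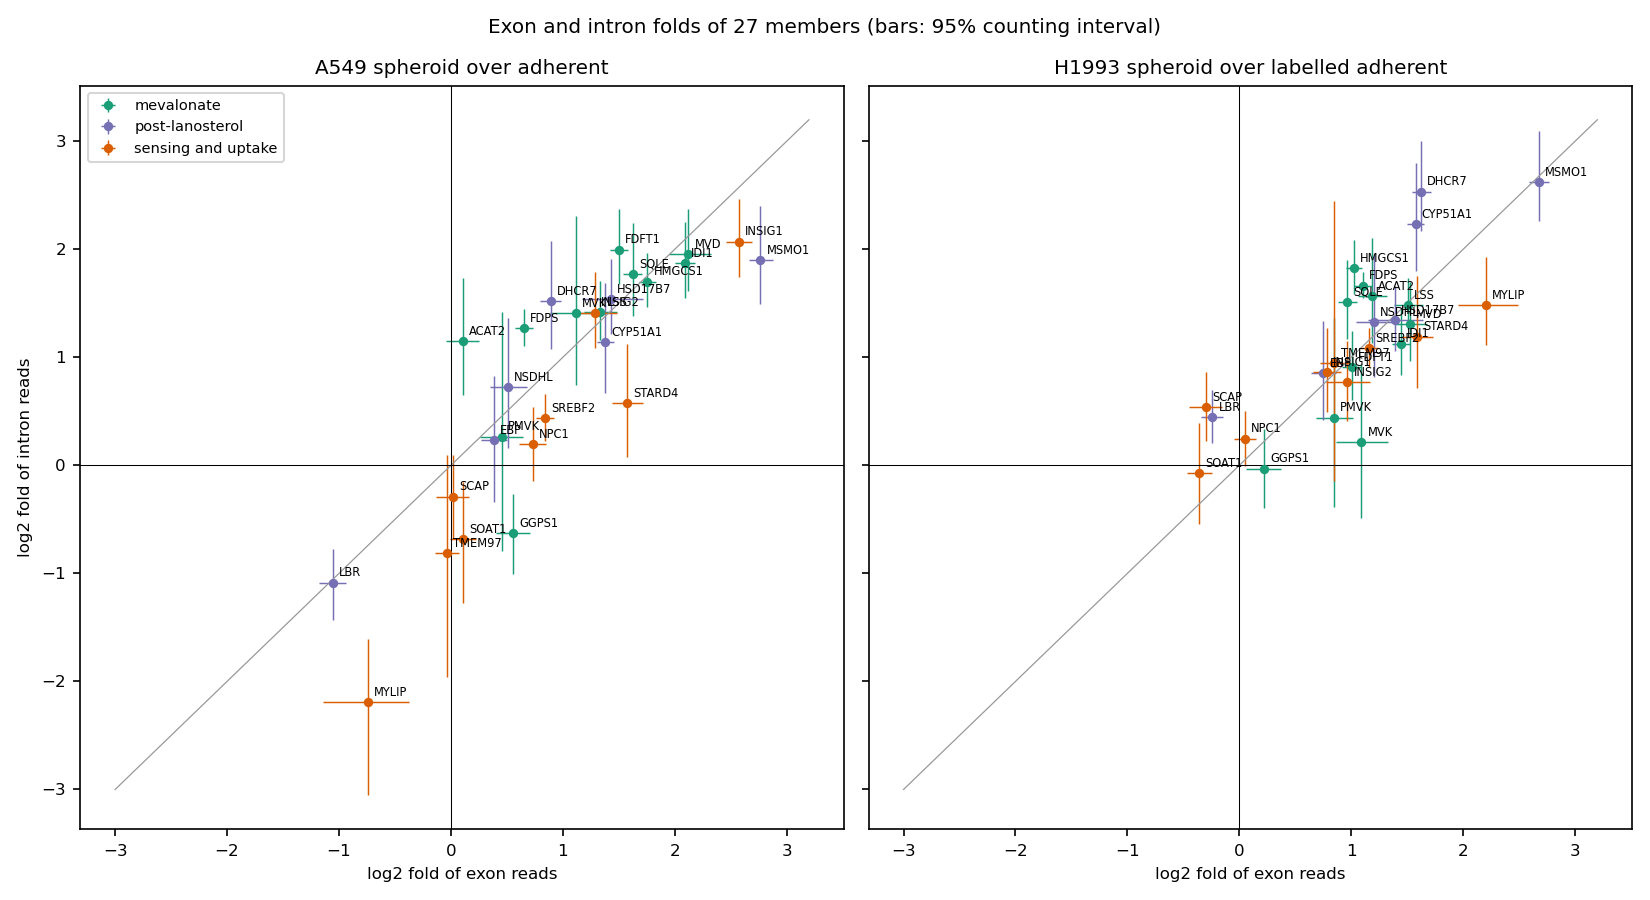
Log2 fold of intron reads (y axis) against that of exon reads (x axis) for 27 genes in the A549 pair (left) and the H1993 pair (right), with 95% counting intervals and the line of equal folds. MYLIP lies at the bottom left in A549 (-0.74 and -2.19), and DHCR7 lies above the line in both panels.

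Over both lines, culture was tested with edgeR's quasi-likelihood test with line as a term, which leaves 1 residual degree of freedom. It called 0 of 15273 genes (0%) at an adjusted p under 0.05, and 0 of the 29, while 1258 genes had an unadjusted p under 0.05. Of the 29, 13 were under that unadjusted limit, and all 13 were higher in spheroids. The smallest adjusted p of the 29 was 0.290, for MSMO1. DESeq2 with the same terms called 591 genes (4.03%), among them MSMO1 (adjusted p = 0.000151) and IDI1 (adjusted p = 0.0494). This test leans on the library labelled H1993 adherent, and without it the A549 pair alone has 15 higher and 1 lower.

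Other genes of sterol and isoprenoid biology came from 5 lists with 58 genes, of which 55 passed the filter. In A549 spheroids 8 of the 55 were higher and 3 lower, beside 12.4% and 10.3% of all genes, and in H1993 spheroids 8 were higher and 7 lower, beside 17.0% and 18.0%. The same shares stand beside the counts of each list below. Highest and lowest below are among genes with at least 100 reads. The medians were 0.22 and -0.03. The 12 genes that process or degrade SREBP and its partners had 0 higher and 0 lower in A549, with a median of 0.14. In H1993 they had 0 higher and 1 lower, MBTPS2, the site-2 protease, at -1.01 (-1.13 to -0.90), beside -0.11 in A549. RNF145, a ubiquitin ligase of the endoplasmic reticulum, and ERLIN2, a partner of the INSIG proteins, were the highest in A549, each at 0.72, and ERLIN1 was the lowest, at -0.38.

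In the list of sterol transport, 3 of 15 were higher in A549, and 4 were higher and 3 lower in H1993. OSBPL10, an oxysterol-binding protein, had 426, 1174, 128 and 249 reads and log2 folds of 1.40 and 1.13. NPC2, the lysosomal partner of NPC1, had 898, 2301, 1039 and 985 reads and 1.29 (1.18 to 1.41) in A549 against 0.11 in H1993. GRAMD1A, a sterol transfer protein, and SCARB1, the receptor for high-density lipoprotein, were the lowest in A549, at -0.21 (-0.29 to -0.14) and -0.18 (-0.25 to -0.11). Both were lower in H1993 spheroids, at -1.68 and -1.07.

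Of the 10 efflux and oxysterol genes 7 passed the filter, with 3 higher in A549 and 2 in H1993. SMPDL3A, a phosphodiesterase, and ABCG1, a sterol exporter, were the highest in A549. Their log2 folds there were 1.69 (1.29 to 2.19) and 1.47 (1.23 to 1.74), against -0.56 and 0.18 in H1993. HSD3B7, an enzyme of bile acid synthesis, and LPCAT3, a phospholipid acyltransferase, were at 0.41 and -0.57 in A549. HSD3B7 was higher in H1993, at 2.26, and LPCAT3 was at -0.37 there. ABCA1, another sterol exporter, was called in neither pair, at 0.95 in A549 and 0.37 in H1993.

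The 12 genes that use isoprenoids outside sterols had 0 higher and 2 lower in each pair. COQ2, which attaches the side chain of ubiquinone, was lower in both, with 394, 133, 378 and 159 reads and log2 folds of -1.62 (-1.92 to -1.34) and -1.06 (-1.34 to -0.79). PDSS1, which makes that side chain, was lower in A549, at -1.12, and had 0.00 in H1993. PDSS2 went the other way, with 0.09 in A549 and a lower call in H1993, at -1.27 (-1.60 to -0.97). DHDDS and NUS1, the subunits that make dolichol precursors, had 0.45 and 0.37 in A549 and 0.22 and -0.61 in H1993.

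Of 9 genes accessory to the sterol enzymes, 2 were higher and 1 lower in each pair. ACSS2, which makes acetyl-CoA from acetate, had 406, 1961, 362 and 3659 reads and log2 folds of 2.20 (2.05 to 2.37) and 3.51 (3.36 to 3.68). FAXDC2, related to the sterol C4-methyl oxidase, had 10, 44, 17 and 146 reads and 1.88 (1.06 to 3.23) and 3.13 (2.56 to 4.10). CYB5A, the cytochrome b5 that feeds electrons to sterol oxidases, was lower in A549, at -1.17, beside -0.85 in H1993. EBPL, related to EBP, was at -0.34 and -0.53. Of the 55 genes, 5 were higher in both pairs, beside 4.70% of all genes, and 2 of them were picked out after their values were seen. These are OSBPL2, another oxysterol-binding protein (1.09 and 1.52), and NR1H3, the oxysterol receptor LXR alpha (1.41 and 1.75).

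**Figure D5:**
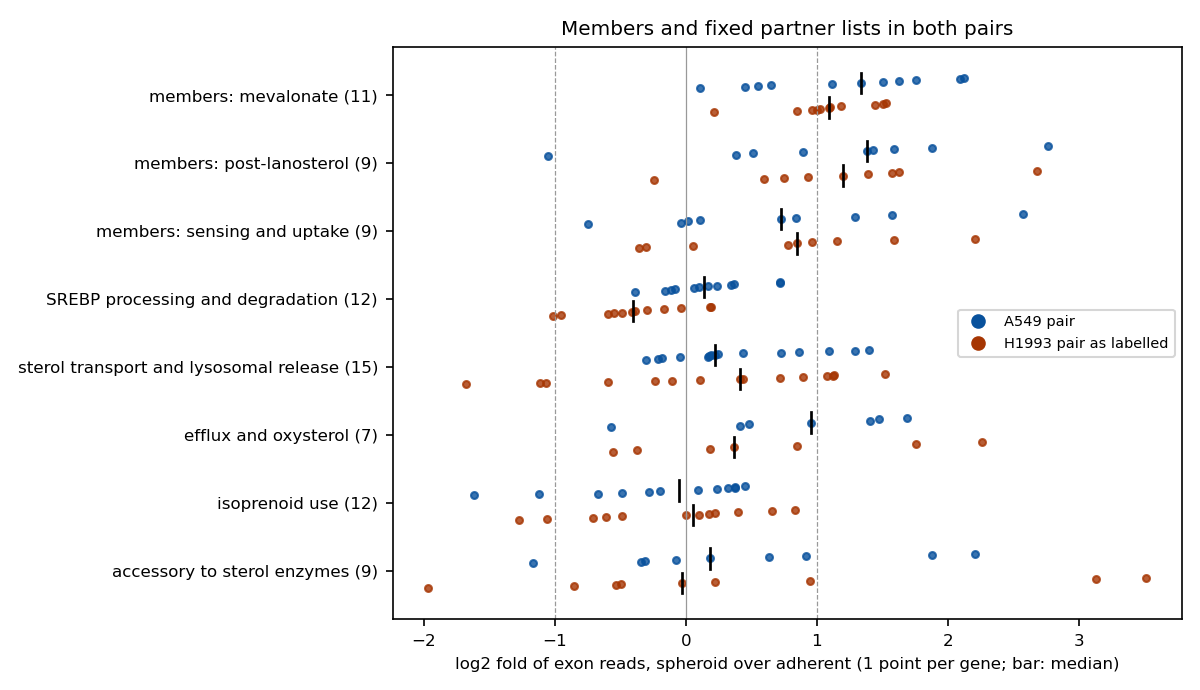
Log2 folds of exon reads for the 3 steps of the 29 genes and for the 5 other lists, 1 point per gene, with the A549 pair in blue, the H1993 pair in brown and black bars for the medians. The medians of the mevalonate and post-lanosterol steps lie above 1 in both pairs (1.33 and 1.09, 1.38 and 1.20), and those of the SREBP processing list are 0.14 and -0.40.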

How the data were processed

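Each of the 4 libraries was made from total RNA with a stranded mRNA kit, per the labels' protocols, and labels gave the groups. The build was hg38, per the submitters' processing notes. Aligner, counting program, annotation and use of strand: each was not given in the sources used here. Deposited tables hold whole-number counts of exon and intron reads per gene and TPM, per the file headers. Separate cultures are not stated, so no spread between samples was measured.

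Exon counts of genes kept by filterByExpr were scaled by TMM in edgeR 4.0.16 (R 4.3.3). A prior count of 2 entered the log2 folds, and intervals followed the exact Clopper-Pearson method in scipy 1.17.1. Intron counts used the exon scaling. With 3 reads as the floor, depth limits detection to between 0.173 and 0.196 CPM. DESeq2 1.42.0 was the other tool. The fit was tested on simulated data. Gene positions of the files were the same in GENCODE 29 for 27 of the 29 genes.

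The 29 genes, the steps and the lists were chosen with earlier results of these data known. Full values went to SREBF2, SCAP, INSIG1, INSIG2 and, per step, to the 3 highest and 2 lowest by A549 fold and the 3 that differed most between pairs, and in each other list to the 2 highest and 2 lowest with at least 100 reads. Some genes of the pathway, or that this rule names, are not reported here.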

Additional observations from a re-analysis of the deposited data

Results flagged for a closer look

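The search covered the 29 pathway genes and those picked as the 2 highest and 2 lowest in each of the 5 other lists. In 5 of them the A549 and H1993 folds lay on opposite sides of 0 with both counting intervals excluding 0. Among the pathway genes only MYLIP did so. The share of all genes that meet this rule was not counted, so whether 5 is many or few is not known. The remaining genes of those lists were not searched, and some met the same rule, among them CYB5B (0.64 in A549 and -1.96 in H1993). The difference between lines was not tested, since each fold compares 1 library with 1 library. For MYLIP the A549 log2 fold minus the H1993 log2 fold was -2.95, from -0.74 and 2.20. For SMPDL3A it was 2.25, from 1.69 and -0.56, with 55, 190, 103 and 61 reads behind it. ERLIN2 differed by 1.67 (0.72 and -0.95), RNF145 by 1.27 (0.72 and -0.55) and NUS1 by 0.98 (0.37 and -0.61). All H1993 values rest on the library labelled H1993 adherent.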

How the results depend on the processing

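Of the 29 genes' counts and medians, 112 values under the alternatives stayed within the limits set and 10 moved. Scaling introns by their own TMM gave 1 gene lower in A549 introns, and between spheroids an intron median of 0.14 with 2 higher and 2 lower. The TPM ratio gave a spheroid pair median of 0.26. Library size scaling gave 1 gene higher in the adherent pair (TM7SF2), and at least 100 intron reads gave 0 lower there. In the culture test the genes of the 29 called numbered 2 with DESeq2, 1 with no filter, and between 0 and 1 when 1 library was left out. Those fits of 3 libraries had no line term, and a lone library was assumed to vary like the others. The 1 came without the H1993 spheroid library, where 158 genes were called in all, and 173 were called with line and no filter. In H1993, HMGCS1 and FDFT1 dropped below 2-fold under library size scaling (0.96 and 0.94) and with no filter (0.99 and 0.97). SQLE, SC5D and INSIG2 passed it by TPM (SQLE and INSIG2 both 1.04), as did LBR between spheroids (1.04). No call changed direction, while folds near 0, among them those of SCAP and ACAT2 in A549, changed sign under other scalings. Library size scaling moved the median of all genes in A549 to -0.11 and the share of higher calls from 54.5% to 46.9%, and the TPM ratio moved it to -0.11 with 47.1%. Line entered the culture test as a term, and without that term 0 of the 29 were called. In the promoters, the 200 bases next to the start held CCAAT in 18 of the 26 genes, against 31.1% of all genes. The exact core TCACCCCAC was in 0.430% of all windows.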
